A study of Mus musculus with 9 samples.

Results

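The BCL2 family genes that decide between survival and mitochondrial cell death were followed by polyA RNA sequencing in mouse bone marrow-derived macrophages. They were taken by gene symbol from the deposited count table as a list of 10 members out of 16200 genes, and all 10 were among the 12587 genes that passed the filter on low counts. Wild-type (WT) marrow cells were grown for 6 days in medium with L929 fibroblast supernatant, a source of the growth factor CSF1, and each of the 3 groups held 3 libraries. The untreated group received no cytokine, the IL-4 group received interleukin-4 (20 ng/ml for 12 h) and the IL-27 group received interleukin-27 (100 ng/ml for 6 h). The cytokines therefore differed in dose and duration as well as in kind, and these cannot be told apart in a direct comparison of the cytokine groups. The treatment text is shared by every sample and does not state whether the IL-27 cells also met IL-4. Which animals gave the marrow is not stated. The labels do not tie the libraries of a group to separate animals or cultures, so every p-value measures only library-to-library spread, which may be technical.

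Proteins of the BCL2 family act at the outer mitochondrial membrane. BAX and BAK, the effectors, open pores that release cytochrome c, which drives assembly of the apoptosome and activation of caspases. BCL2, BCL-XL (gene Bcl2l1) and MCL1, the pro-survival members, hold the effectors and their activators in check. The BH3-only members BIM (Bcl2l11), PUMA (Bbc3), NOXA (Pmaip1), BID and BAD sense stress and growth factor loss, and either block the pro-survival proteins or engage the effectors. In macrophages, survival depends on CSF1 signalling, and MCL1 is among the pro-survival proteins that myeloid cells express. Much of the control in this family is by phosphorylation, cleavage and protein turnover, which mRNA levels do not record.

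The libraries held 34577188 to 37951827 counts, and the 10 members were covered by 102 to 26654 counts per library. A pair of libraries, untreated library 2 and IL-4 library 1, stood apart from the other libraries of their groups. Within a group, the chi-square per gene was between 91.7 and 115.6 for pairs that held one of them and between 5.43 and 8.86 for every other pair. Across 9553 genes, which are not independent replicates, their deviations from the group means correlated with each other at r = 0.9003. They stayed in the fit, and the values without both are given beside the results. They were picked from these same counts, and without them the untreated and IL-4 groups each lack 1 library. Their removal lowers the spread between libraries, so p-values without both come out too small and do not make a call firmer. All 8 macrophage markers (Adgre1, Csf1r, Cd68, Itgam, Mertk, Fcgr1, Lyz2 and Cd14) were above 1 CPM in every group. Their summed level was 23087 to 31788 CPM in untreated, 14504 to 18107 CPM in IL-4 and 24262 to 26336 CPM in IL-27 libraries. Lyz2 made up most of these sums, at means of 18937, 9407 and 20007 CPM. Against untreated cells Adgre1, Csf1r, Mertk, Fcgr1 and Cd14 were called lower under IL-27, Csf1r by 1.93-fold (edgeR adjusted p = 0.00115). Cd68, Itgam and Lyz2 were not called there. Under IL-4, Mertk, Fcgr1, Lyz2 and Cd14 were called lower, and Adgre1, Csf1r, Cd68 and Itgam were not called. The 5 fibroblast markers (Col1a1, Col1a2, Col3a1, Pdgfra and Dcn) were also present, with none at 0, and were higher in the IL-27 group. Their summed level was 680 to 772 CPM in untreated, 508 to 713 CPM in IL-4 and 1044 to 1306 CPM in IL-27 libraries. Of these markers, 4 of 5 passed the test in the IL-27 group against untreated cells. All 5 were called higher under IL-27 than under IL-4, from 1.58-fold for Col1a1 to 6.01-fold for Dcn (edgeR adjusted p = 0.00634 and 2.73e-05). Without the libraries that stood apart 4 of 5 were also called lower in the IL-4 group against untreated cells. The part of these markers in the results below was not tested. Markers of neutrophils, T cells, B cells, dendritic cells and mast cells summed to at most 12.2 CPM in any library, and Mpo, Elane, Cd3d, Cd3e, Cd8a, Xcr1, Siglech and Cpa3 were at 0 in all libraries of at least 1 group.

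Levels of different genes were compared on the deposited FPKM scale, which divides counts by gene length and library total. In untreated cells the effector Bax stood highest, at a mean of 111.9 ± 26.7 FPKM (SD, n = 3), followed by Mcl1 at 78.9 ± 15.7 FPKM, and their single-library ranges were 93.1 to 142 and 60.9 to 88.4 FPKM, with no overlap. Next came Bak1 at 41.6 ± 3.17 FPKM and Bcl2l1 at 27.1 ± 0.485 FPKM. The BH3-only genes Bad, Bid and Bcl2l11 lay close together at 18.5 ± 1.11, 18.4 ± 1.10 and 16.4 ± 1.99 FPKM, and these 3 did not differ beyond their spread. Bbc3 at 5.49 ± 0.113 FPKM, Pmaip1 at 3.57 ± 1.53 FPKM and Bcl2 at 1.81 ± 0.286 FPKM were lowest. Bcl2 was thus the least abundant of the 3 pro-survival members, and Pmaip1 the most variable member, in untreated cells. In IL-27 cells Bcl2l1 reached 47.7 ± 1.03 FPKM and Bak1 stood at 50.3 ± 2.43 FPKM, with overlapping single-library ranges of 46.5 to 48.3 and 47.5 to 52.1 FPKM.

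**Figure D1:**
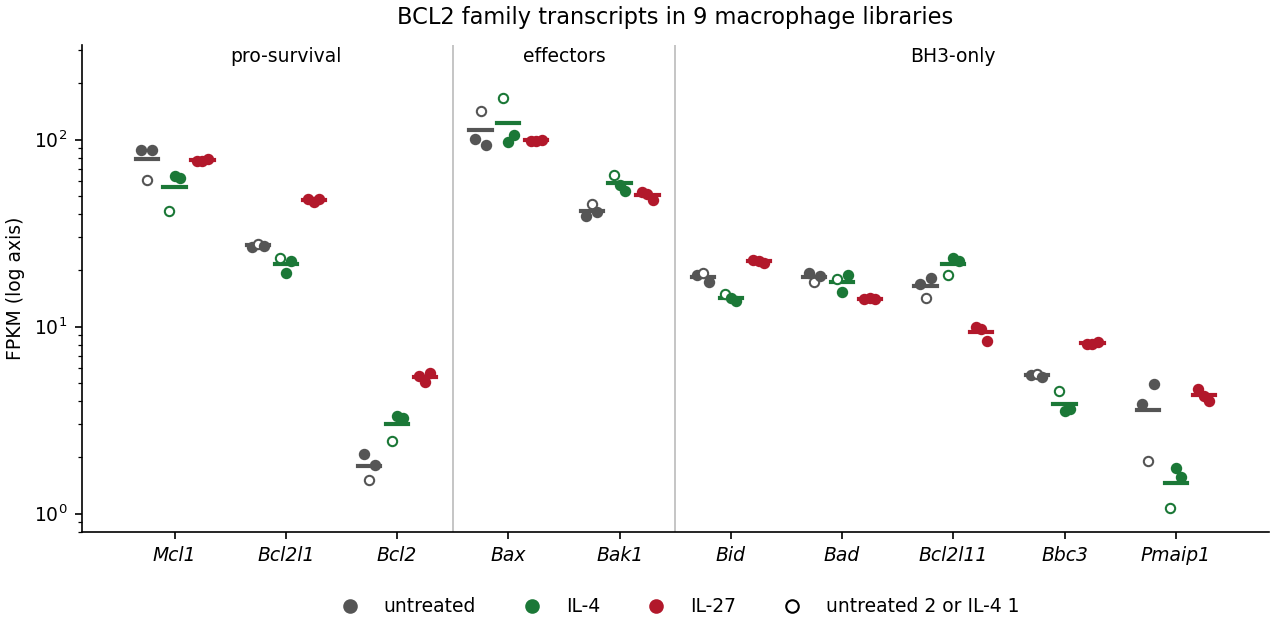
FPKM (log axis) of the 10 members in each of 9 libraries, grouped by role; each point is a library, each bar the group mean, and open points mark untreated library 2 and IL-4 library 1. Bcl2 and Bcl2l1 are highest and Bcl2l11 lowest in the IL-27 libraries, and the open points for Bax lie far above the filled ones of the same groups.

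Fold changes were tested with edgeR's quasi-likelihood test on the counts, and a gene was called when its Benjamini-Hochberg adjusted p over all tested genes was under 0.05. A bulk library cannot tell fewer cells of a type from less RNA per cell. Of the 10 members, 3 rose and 5 fell under IL-4 against untreated cells, where 25.0% of all tested genes were called (12.9% higher and 12.0% lower). Under IL-27, 3 rose and 2 fell, with 29.2% of all genes called (14.0% higher and 15.1% lower). Between the cytokines, 6 were higher and 1 was lower under IL-27, with 39.8% of all genes called (18.8% higher and 21.0% lower). The median log2 fold change of the members was -0.25, 0.29 and 0.62 in these comparisons, beside -0.01, 0.00 and 0.01 over all tested genes. The members were chosen with earlier results of these data known, and both comparisons with untreated cells share the same 3 untreated libraries.

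Bcl2, Bcl2l1, Bcl2l11 and Bbc3 were called in each of the 3 comparisons, so the promoter-proximal sequence of these 4 genes is shown, as a guide to the regions from which they are transcribed. Each run is the 250 bases before a RefSeq transcription start (build GRCm38.p6, an older build than the GRCm39 named for the counts), 5′ to 3′ on the gene's strand, matched by symbol. Capitals mark 2 kinds of match on either strand, the GC box GGGCGG and the forkhead (FOXO) core GTAAACA, and neighbouring GC boxes may share bases. Bcl2 is shown at chr1:106714291-106714540 (minus strand). Bcl2l1, which has 3 starts in the table, is shown at its most upstream one, chr2:152831729-152831978 (minus strand). Bcl2l11 is shown at chr2:128125788-128126037 (plus strand), the upstream one of a pair of starts. Bbc3 is shown at chr7:16310011-16310260 (plus strand), the middle one of 3 starts, chosen after the search as the one with a forkhead core.
Bcl2: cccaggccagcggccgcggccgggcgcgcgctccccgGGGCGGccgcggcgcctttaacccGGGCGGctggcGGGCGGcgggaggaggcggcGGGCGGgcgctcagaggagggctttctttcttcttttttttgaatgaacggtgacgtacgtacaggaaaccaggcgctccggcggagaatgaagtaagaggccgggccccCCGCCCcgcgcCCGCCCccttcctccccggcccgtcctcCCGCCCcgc
Bcl2l1: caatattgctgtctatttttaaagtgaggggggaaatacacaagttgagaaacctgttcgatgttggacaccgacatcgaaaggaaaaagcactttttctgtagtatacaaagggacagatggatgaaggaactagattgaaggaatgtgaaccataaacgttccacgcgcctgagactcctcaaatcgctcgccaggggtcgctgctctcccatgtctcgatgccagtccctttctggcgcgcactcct
Bcl2l11: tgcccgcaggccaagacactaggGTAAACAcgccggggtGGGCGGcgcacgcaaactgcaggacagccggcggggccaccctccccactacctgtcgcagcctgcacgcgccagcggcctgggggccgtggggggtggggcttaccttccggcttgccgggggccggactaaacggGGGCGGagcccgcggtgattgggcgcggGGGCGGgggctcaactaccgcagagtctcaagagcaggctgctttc
Bbc3: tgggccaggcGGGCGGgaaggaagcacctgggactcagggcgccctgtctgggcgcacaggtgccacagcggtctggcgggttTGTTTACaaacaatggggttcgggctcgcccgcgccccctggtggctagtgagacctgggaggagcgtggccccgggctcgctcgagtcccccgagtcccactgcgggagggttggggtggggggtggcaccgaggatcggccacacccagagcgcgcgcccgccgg

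The Bcl2 window held 7 GC boxes and the Bcl2l1 window none. The Bcl2l11 window held 3 GC boxes and a forkhead core 227 to 221 bases before the start, and the Bbc3 window held 1 GC box and a forkhead core 167 to 161 bases before it. The Bbc3 windows not shown held 5 and 7 GC boxes, the latter with an E-box, and the Bcl2l11 window not shown held 2 GC boxes; none of these held a forkhead core. Over 9 of the 10 members, 15 windows were searched. Pmaip1 was left out of this search, so the counts do not cover it. Of these 15, 10 held a GC box, 2 a forkhead core and 2 an E-box (CACGTG), while 32.7%, 3.17% and 6.02% of all 32851 promoter windows did. None of the 15 held a STAT site with a 3-base spacer (TTCNNNGAA) or a 4-base spacer (TTCNNNNGAA), a cyclic AMP element (TGACGTCA) or an AP-1 site (TGANTCA), which were present in 7.02%, 5.85%, 1.55% and 6.75% of all windows. A match describes letters in a window and says nothing of binding, and a missing match covers this window only.

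Among the pro-survival genes, Bcl2 rose under both cytokines. Its level was 2.08, 1.51 and 1.82 FPKM in untreated libraries 1 to 3, 2.44, 3.32 and 3.24 FPKM in IL-4 libraries 1 to 3 and 5.44, 5.04 and 5.67 FPKM in IL-27 libraries 1 to 3. The 3 groups did not overlap, with untreated libraries lowest and IL-27 libraries highest. The rise was 1.61-fold under IL-4 (log2 fold change 0.69 ± 0.12 SE, edgeR adjusted p = 0.00208) and 3.03-fold under IL-27 (1.60 ± 0.12, edgeR adjusted p = 9.40e-06). The IL-27 group was also above the IL-4 group, by 1.88-fold (edgeR adjusted p = 0.000167). All 3 calls held in every alternative run.

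Bcl2l1, which encodes BCL-XL, moved in opposite directions under the cytokines. It stood at 26.8, 27.7 and 26.9 FPKM in untreated, 23.2, 19.3 and 22.5 FPKM in IL-4 and 48.2, 46.5 and 48.3 FPKM in IL-27 libraries 1 to 3. Again the 3 groups were separate, here with the IL-4 libraries lowest. Under IL-27 it rose 1.77-fold (log2 fold change 0.83 ± 0.11 SE, edgeR adjusted p = 0.000443), and it was 2.29-fold higher under IL-27 than under IL-4 (edgeR adjusted p = 2.23e-05), calls that held in every alternative. The fall under IL-4 was small, at -0.37 ± 0.11 on the log2 scale (edgeR adjusted p = 0.0385). Of the 9 fits that each left out 1 library, only that without IL-4 library 1 kept the call (edgeR adjusted p from 0.0593 to 0.122 in the others). With both libraries that stood apart left out, a choice made from these same counts, the value was -0.40 ± 0.06 (edgeR adjusted p = 2.56e-06). In that fit 46.4% of all tested genes were called.

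Mcl1, the most abundant of the 3 pro-survival members, fell under IL-4 and differed little between IL-27 and untreated cells. Its level was 88.4, 60.9 and 87.6 FPKM in untreated, 41.4, 63.9 and 62.2 FPKM in IL-4 and 76.3, 76.8 and 79.2 FPKM in IL-27 libraries 1 to 3. Untreated library 2 and IL-4 library 1 were the lowest of their groups, and untreated library 2 lay below 2 IL-4 libraries on this scale; after TMM scaling the untreated and IL-4 groups did not overlap (579 to 742 against 379 to 528 CPM). The IL-27 libraries lay close together, above every IL-4 library. The fall under IL-4 was 1.46-fold (edgeR adjusted p = 0.0181), and the level under IL-27 was 1.46-fold above that under IL-4 (edgeR adjusted p = 0.0113). The first of these calls was lost without untreated library 1 or without untreated library 3 (edgeR adjusted p = 0.0666 and 0.0659). Against untreated cells the IL-27 value was 0.00 ± 0.14 on the log2 scale (edgeR adjusted p = 0.996), and it was -0.11 ± 0.04 without both libraries that stood apart (edgeR adjusted p = 0.0195), a small fall in place of no call.

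The effectors were called in fewer comparisons. Bak1, a pore-former that sits in the mitochondrial membrane, stood at 38.8, 45.0 and 40.9 FPKM in untreated, 64.6, 57.3 and 53.4 FPKM in IL-4 and 52.1, 51.2 and 47.5 FPKM in IL-27 libraries 1 to 3. Every IL-4 and IL-27 library lay above every untreated one on the FPKM scale, although the IL-27 and untreated groups overlapped after TMM scaling. Bak1 rose 1.37-fold under IL-4 (log2 fold change 0.45 ± 0.14 SE, edgeR adjusted p = 0.0365) and did not pass under IL-27 (0.29 ± 0.14, edgeR adjusted p = 0.144). The IL-4 call rested on single libraries: it was kept on leaving out untreated library 2 or IL-4 library 3 and lost on leaving out any of the other 7 (edgeR adjusted p from 0.0595 to 0.127). With both libraries that stood apart left out, Bak1 was called under IL-4 (0.44 ± 0.06, edgeR adjusted p = 2.35e-06) and under IL-27 (0.41 ± 0.06, edgeR adjusted p = 2.01e-06), and without untreated library 2 alone the IL-27 value passed too (edgeR adjusted p = 0.0384). Between the cytokines Bak1 did not pass (-0.16 ± 0.14, edgeR adjusted p = 0.370).

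Bax, the effector that moves from the cytosol to mitochondria, showed no call in any comparison. It stood at 100.2, 142 and 93.1 FPKM in untreated, 167, 97.4 and 105.6 FPKM in IL-4 and 98.7, 98.8 and 99.1 FPKM in IL-27 libraries 1 to 3. Untreated library 2 and IL-4 library 1 were far above all others, and the other 7 libraries lay between 93.1 and 105.6 FPKM. The log2 fold changes were 0.10 ± 0.26 under IL-4 and -0.18 ± 0.26 under IL-27 (edgeR adjusted p = 0.824 and 0.641), and -0.28 ± 0.26 between the cytokines (edgeR adjusted p = 0.423). In the 7 remaining libraries alone, the values against untreated were 0.04 ± 0.06 and 0.10 ± 0.05 (edgeR adjusted p = 0.614 and 0.118), so the sign under IL-27 turned.

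Of the BH3-only genes, Bcl2l11, which encodes the CSF1- and growth factor-sensitive protein BIM, went up under IL-4 and down under IL-27. It stood at 16.9, 14.2 and 18.1 FPKM in untreated, 18.9, 23.3 and 22.5 FPKM in IL-4 and 9.96, 9.68 and 8.36 FPKM in IL-27 libraries 1 to 3. The 3 groups were separate, with IL-4 highest and IL-27 lowest, the reverse of the order for Bcl2l1. Under IL-27 it fell 1.73-fold (log2 fold change -0.79 ± 0.10 SE, edgeR adjusted p = 0.000230), and it was 2.21-fold lower under IL-27 than under IL-4 (-1.14 ± 0.10, edgeR adjusted p = 1.03e-05). The 1.28-fold rise under IL-4 (edgeR adjusted p = 0.0230) did not hold when untreated library 1, IL-4 library 2 or IL-4 library 3 was left out (edgeR adjusted p = 0.0736, 0.0763 and 0.0691). Leaving out both libraries that stood apart, it was called (0.36 ± 0.07, edgeR adjusted p = 1.00e-04).

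Bbc3, Bid and Pmaip1 were higher under IL-27 than under IL-4. Bbc3 encodes PUMA, an activator induced by p53 and by endoplasmic reticulum stress. It stood at 5.50, 5.60 and 5.37 FPKM in untreated, 4.50, 3.52 and 3.60 FPKM in IL-4 and 8.06, 8.07 and 8.26 FPKM in IL-27 libraries 1 to 3. All 3 groups were separate. Bbc3 fell 1.45-fold under IL-4 (edgeR adjusted p = 0.0216), rose 1.50-fold under IL-27 (edgeR adjusted p = 0.0126) and differed 2.17-fold between the cytokines (edgeR adjusted p = 0.000178). Only the first of these was lost on leaving out a library, namely IL-4 library 2 or IL-4 library 3 (edgeR adjusted p = 0.0781 and 0.0834). The rise under IL-27 came close to being lost, with an adjusted p of up to 0.0499 over the edgeR and DESeq2 alternatives.

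Pmaip1 encodes NOXA, which binds MCL1 and promotes its destruction. It was 1 of the 2 least abundant members in every library, at 3.85, 1.92 and 4.94 FPKM in untreated, 1.08, 1.76 and 1.56 FPKM in IL-4 and 4.64, 4.25 and 3.99 FPKM in IL-27 libraries 1 to 3. The IL-4 libraries were below all others, while the IL-27 range lay inside the wide untreated one. It fell 2.48-fold under IL-4 (log2 fold change -1.31 ± 0.27 SE, edgeR adjusted p = 0.00647), the largest fold among the members there, and this call held in every alternative. Under IL-27 the value against untreated was 0.31 ± 0.26 (edgeR adjusted p = 0.416), or 0.04 ± 0.14 without both libraries that stood apart (edgeR adjusted p = 0.854). Pmaip1 was 3.07-fold higher under IL-27 than under IL-4 (edgeR adjusted p = 0.00106).

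Bid, whose protein is cut by caspase-8 and so links death receptors to mitochondria, fell under IL-4. It stood at 18.8, 19.3 and 17.2 FPKM in untreated, 15.0, 14.1 and 13.6 FPKM in IL-4 and 22.6, 22.5 and 22.0 FPKM in IL-27 libraries 1 to 3, with no overlap between any 2 groups. The fall under IL-4 was 1.33-fold (edgeR adjusted p = 0.0254) and did not hold when any of untreated 1, untreated 2, IL-4 2 and IL-4 3 was left out (edgeR adjusted p = 0.0560, 0.0614, 0.0811 and 0.0966). Under IL-27 the value against untreated did not pass (0.29 ± 0.11, edgeR adjusted p = 0.0834). It passed without untreated library 2, without IL-4 library 1 and without both (edgeR adjusted p = 0.0283, 0.0429 and 4.58e-05). Bid was 1.63-fold higher under IL-27 than under IL-4 (edgeR adjusted p = 0.000827), in every alternative.

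Bad, the BH3-only protein held inactive by growth factor kinases, was called in 1 comparison only, its fall under IL-27. It stood at 19.4, 17.2 and 18.7 FPKM in untreated, 17.9, 15.3 and 18.9 FPKM in IL-4 and 14.0, 14.3 and 14.1 FPKM in IL-27 libraries 1 to 3. The IL-27 libraries were below all others on the FPKM scale, and the untreated and IL-4 groups overlapped. After TMM scaling the IL-27 and IL-4 groups overlapped too, with IL-27 library 2 at 22.3 CPM and IL-4 library 2 at 22.1 CPM. The fall under IL-27 was 1.29-fold (log2 fold change -0.37 ± 0.11 SE, edgeR adjusted p = 0.0299), and it was lost on leaving out any single untreated or IL-27 library (edgeR adjusted p from 0.0517 to 0.0944) but not without both libraries that stood apart (edgeR adjusted p = 0.00169). Under IL-4 it did not pass (-0.12 ± 0.11, edgeR adjusted p = 0.449). Against IL-4 it did not pass either (edgeR adjusted p = 0.105), except without IL-4 library 2 (edgeR adjusted p = 0.0236).

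**Figure D2:**
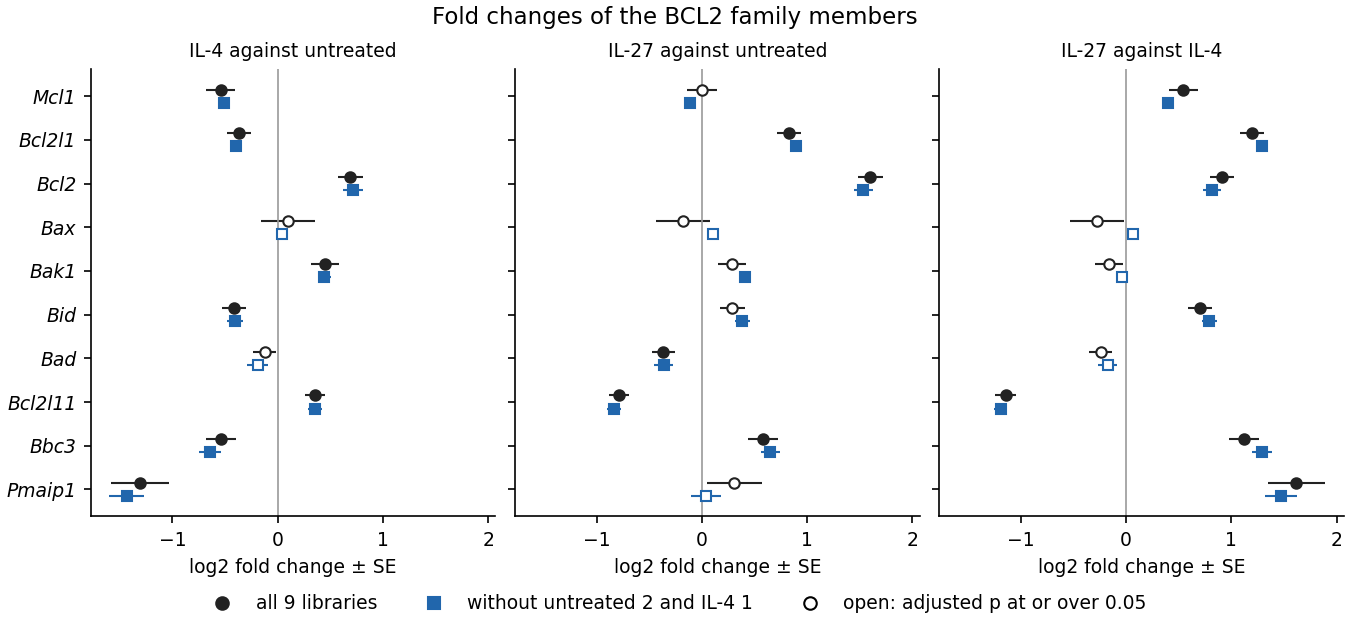
Log2 fold changes ± SE of the 10 members in the 3 comparisons, with all 9 libraries (circles) and without untreated library 2 and IL-4 library 1 (squares); filled symbols have an adjusted p under 0.05. Bcl2l1, Bbc3, Bcl2l11, Bid and Pmaip1 lie on opposite sides of 0 under IL-4 and IL-27 in both fits. Under IL-27, Pmaip1 was called in neither fit and Bid only without the 2 libraries. Bcl2 and Bak1 lie above 0 under both cytokines.

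Some counts of called members changed with single libraries or fits. In a fit to the untreated and IL-4 libraries alone, Bcl2 and Pmaip1 kept their calls and the other 6 genes called under IL-4 had an edgeR adjusted p from 0.0511 to 0.108. Under IL-4 the 3 rises became 1 without untreated library 1 or IL-4 library 2. The 5 falls became 2 when untreated 1, IL-4 2 or IL-4 3 was left out and 3 without untreated library 2 or untreated library 3. Under IL-27 the 3 rises became 5 without untreated library 2, and the 2 falls became 1 without any single untreated or IL-27 library. Between the cytokines the 6 members higher under IL-27 were 6 in each leave-one-out fit, and the 1 lower became 2 without IL-4 library 2. With both libraries that stood apart left out, 3 members were higher and 5 lower under IL-4, 5 higher and 3 lower under IL-27 and 6 higher and 1 lower between the cytokines, where 46.4%, 49.5% and 58.3% of all tested genes were called. Groups did not overlap on the TMM-normalised CPM scale for 8 members under IL-4, 6 under IL-27 and 7 between the cytokines, where 36.0%, 52.2% and 56.7% of all tested genes did not.

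Relative levels within a library show how these changes combined; they are sums over chosen members and were not tested. The 3 pro-survival genes summed to 107.9 ± 15.4 FPKM in untreated, 80.5 ± 11.6 FPKM in IL-4 and 130.5 ± 2.45 FPKM in IL-27 libraries. By library the sums ran from 90.1 to 117 in untreated, 67.1 to 87.9 in IL-4 and 128 to 133 FPKM in IL-27 cells, so the groups were separate. This order covers these 3 genes only, since the pro-survival Bcl2a1 copies did not enter. Of those copies, Bcl2a1a and Bcl2a1b were called higher under IL-4 than in untreated cells and Bcl2a1d was not called. Bcl2a1b, the copy with the highest CPM, stood at 171 CPM in untreated, 227 CPM in IL-4 and 186 CPM in IL-27 libraries. The 5 BH3-only genes summed to 62.4 ± 3.51, 58.6 ± 1.48 and 58.2 ± 1.35 FPKM, with overlapping groups on this scale. As TMM-scaled CPM per kilobase the untreated sums, 62.0 to 63.6, lay above every IL-4 sum, 55.0 to 60.2, and every IL-27 sum, 57.5 to 60.4. The 2 effectors summed to 153 ± 29.5, 182 ± 43.0 and 149 ± 2.26 FPKM, where the wide spread came from Bax in the libraries that stood apart.

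Shares within the pro-survival and BH3-only members were described in the same way, and relatives outside the list of members did not enter them. Mcl1 gave 72.7% ± 4.48 of the pro-survival FPKM in untreated, 68.8% ± 6.31 in IL-4 and 59.3% ± 0.566 in IL-27 libraries. Bcl2l1 gave 25.6% ± 4.47, 27.5% ± 6.40 and 36.5% ± 0.477, and Bcl2 gave 1.67% ± 0.105, 3.72% ± 0.106 and 4.12% ± 0.173. The Mcl1 and Bcl2l1 shares overlapped between untreated and IL-4 libraries, whereas the Bcl2 share did not overlap between any groups. Bcl2l11 gave 26.2% ± 1.88 of the BH3-only FPKM in untreated, 36.8% ± 3.60 in IL-4 and 16.0% ± 1.11 in IL-27 libraries. The FPKM ratio of Bcl2l11 to Bcl2l1 was 0.605 ± 0.0822 in untreated, 1.01 ± 0.196 in IL-4 and 0.196 ± 0.0199 in IL-27 libraries. Its single-library ranges were 0.514 to 0.673, 0.815 to 1.21 and 0.173 to 0.208, with no overlap between groups.

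**Figure D3:**
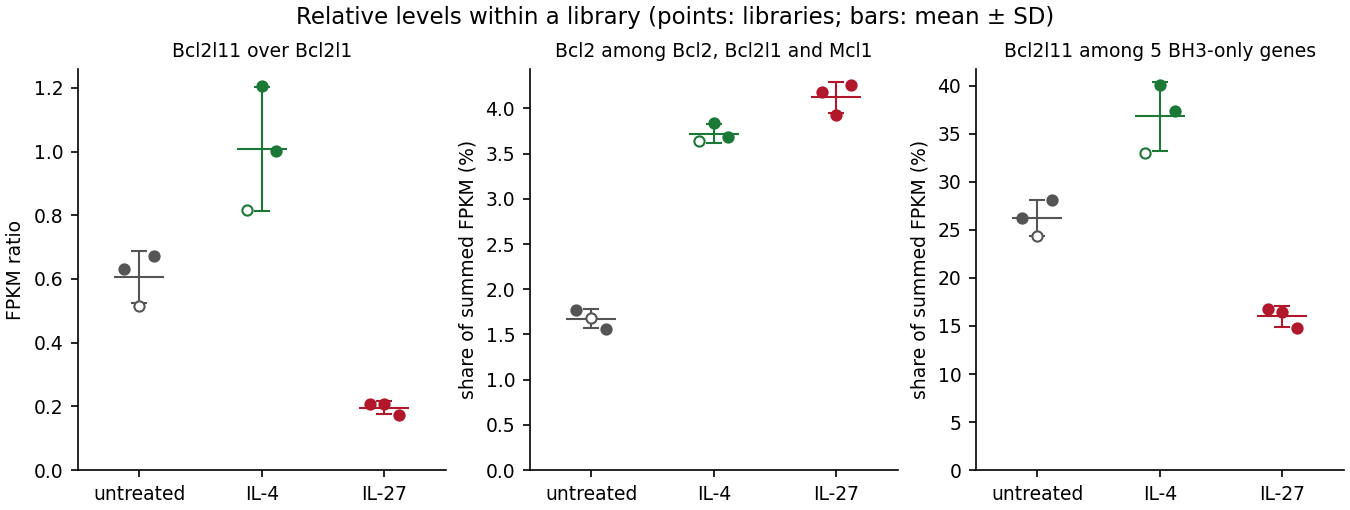
Relative FPKM levels within each library for Bcl2l11 over Bcl2l1 (a ratio), Bcl2 among the 3 pro-survival genes and Bcl2l11 among the 5 BH3-only genes (percent); points are libraries, bars are means ± SD, and open points mark untreated library 2 and IL-4 library 1. In the left and right panels IL-4 libraries are highest and IL-27 libraries lowest, without overlap.

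The members differed in how far the libraries that stood apart departed from their group. Bax was above the group mean by 0.49 in untreated 2 and by 0.58 (log2) in IL-4 1, and Bak1 by 0.23 and 0.25. Pmaip1 was below it, at -0.67 and -0.31, as was Mcl1, at -0.24 and -0.30. Transcript GC content, from the longest GENCODE vM21 transcript of each symbol, was 63.5% for Bax and 57.1% for Bak1, against 48.7% for Mcl1 and 42.1% for Pmaip1, where the median of tested genes was 49.8%. All 6 members above 50% GC were above their group mean in both libraries, and all 4 below it were below their group mean in both. The same split was not counted over all tested genes, so it is not shown to be particular to the members. Deviations in the 2 libraries correlated at r = 0.9003 over 9553 genes, so they are not separate observations. The part of GC content in the results was not tested.

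**Figure D4:**
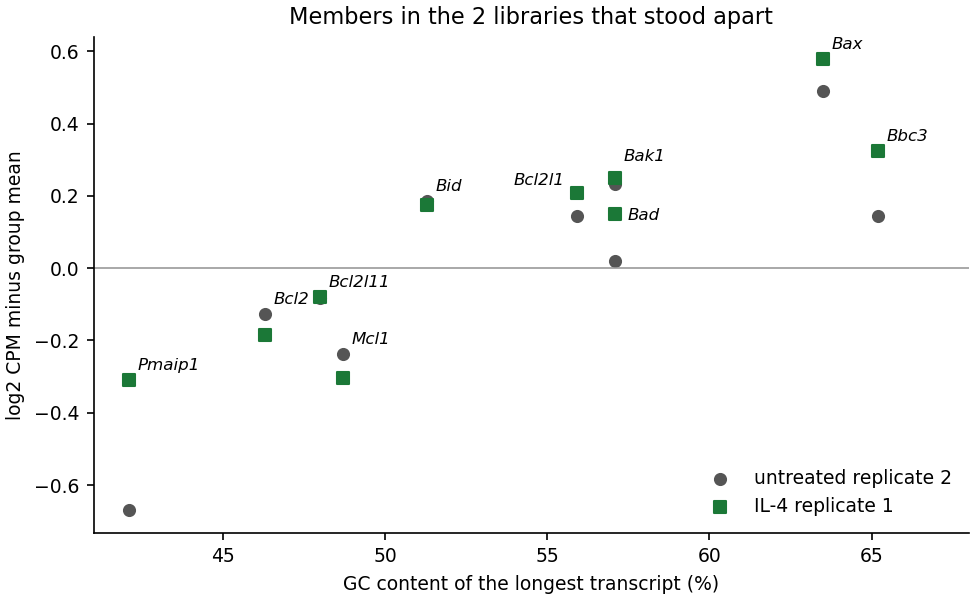
Deviation of each member from its group mean (log2 CPM) in untreated library 2 (circles) and IL-4 library 1 (squares), against the GC content (%) of its longest transcript. Members at the left, such as Pmaip1 and Mcl1, lie below 0 and members at the right, such as Bax and Bbc3, above it.

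Other relatives of the family were counted from a list of 14 genes, of which 10 were tested. Under IL-4, 2 rose and 1 fell; under IL-27, 3 rose and 3 fell; and between the cytokines 3 were higher and 3 lower. Their median log2 fold changes against untreated were -0.14 and 0.09, beside -0.01 and 0.00 over all genes. Of all tested genes, 25.0%, 29.2% and 39.8% were called under IL-4, under IL-27 and between the cytokines. For this list and the next 4, the shares of all tested genes called in the 7 remaining libraries were 46.4%, 49.5% and 58.3%. The largest change was a fall of Bmf, a BH3-only gene tied to loss of attachment, from 28.1 ± 1.17 CPM in untreated to 9.45 ± 0.785 CPM in IL-4 and 9.28 ± 0.700 CPM in IL-27 libraries (edgeR adjusted p = 1.18e-05 and 7.43e-06). The pro-survival gene Bcl2a1d rose from 23.1 ± 1.20 to 44.7 ± 0.791 CPM under IL-27 (edgeR adjusted p = 6.45e-05) and stood at 20.4 ± 1.76 CPM in IL-4 cells. Bcl2a1a rose from 3.27 ± 0.573 CPM to 7.85 ± 1.30 under IL-4 and 9.72 ± 1.38 under IL-27 (edgeR adjusted p = 0.00114 and 0.000248), but the Bcl2a1 copies are nearly identical and the split of reads between them is uncertain. Bnip3l, a mitophagy receptor, rose 1.50-fold under IL-27 (edgeR adjusted p = 0.00859). Also called, and like the further genes closing the next 4 lists named after their values were seen, were Bcl2a1b under IL-4 (log2 fold change 0.40) and Bcl2l12 and Bcl2l13 under IL-27 (-0.62 and -0.30). Their edgeR adjusted p was 0.00570, 0.0448 and 0.0348. Bcl2a1b had the highest CPM of the Bcl2a1 copies, at 171 ± 8.03 in untreated, 227 ± 9.88 in IL-4 and 186 ± 11.8 in IL-27 libraries. It did not pass under IL-27 against untreated (edgeR adjusted p = 0.303) and was lower under IL-27 than under IL-4 (edgeR adjusted p = 0.0206). The 3 falls under IL-27 became 1 without untreated library 3 or any single IL-27 library. In the 7 remaining libraries the counts were 3 up and 4 down under IL-4, 3 up and 2 down under IL-27 and 5 higher and 3 lower between the cytokines.

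Downstream of the pore, 16 genes for the apoptosome, caspases and inhibitors of apoptosis were tested. Under IL-4, 4 rose and 1 fell, with a median log2 fold change of 0.04, while under IL-27 1 rose and 7 fell, with a median of -0.20. Between the cytokines 0 were higher and 8 lower under IL-27 by edgeR at an adjusted p under 0.05, with 1 higher without untreated library 2, 1 at an unadjusted p under 0.05 and 0 by DESeq2. Over all tested genes, 12.9% were higher and 12.0% lower under IL-4, and 14.0% higher and 15.1% lower under IL-27. Between the cytokines these shares were 18.8% and 21.0%. Casp6, an executioner caspase, rose from 18.5 ± 0.262 to 41.9 ± 2.01 CPM under IL-4 and fell to 9.79 ± 1.59 CPM under IL-27 (edgeR adjusted p = 0.000103 and 0.000445), a 4.28-fold difference between the cytokines. Birc5 (survivin), which also serves cell division, rose from 20.5 ± 2.41 to 36.3 ± 0.719 CPM under IL-4 and fell to 3.54 ± 1.10 CPM under IL-27 (edgeR adjusted p = 0.00738 and 1.16e-05). Cytochrome c (Cycs) rose under both, 1.83-fold and 1.42-fold (edgeR adjusted p = 0.000346 and 0.00666). Birc3, an inhibitor of apoptosis in NF-kappa-B signalling, fell under both, 1.71-fold and 1.44-fold (edgeR adjusted p = 0.000429 and 0.00362). Among the further called genes were Casp2, Htra2 and Aifm1 under IL-27 (log2 fold change -0.76, -0.47 and -0.46, edgeR adjusted p = 0.000627, 0.0349 and 0.00725). In the 7 remaining libraries the counts were 5 up and 2 down under IL-4, 1 up and 9 down under IL-27 and 2 higher and 10 lower between the cytokines.

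In death receptor signalling, 12 genes were tested, with 2 up and 3 down under IL-4, 2 up and 2 down under IL-27 and 2 higher and 3 lower between the cytokines, at medians of -0.05, -0.22 and 0.03. The shares of all tested genes called in these comparisons were 25.0%, 29.2% and 39.8%. Cflar, which encodes the caspase-8 inhibitor c-FLIP, stood at 93.5 ± 6.41 CPM in untreated, 70.5 ± 8.10 CPM in IL-4 and 163 ± 9.26 CPM in IL-27 libraries. It fell under IL-4 (edgeR adjusted p = 0.0181, lost without untreated library 1 or 3 with edgeR adjusted p = 0.0627 and 0.0653) and rose under IL-27 (edgeR adjusted p = 0.000339). Ripk3, the necroptosis kinase, went the other way, from 9.40 ± 0.771 CPM up to 19.1 ± 2.79 under IL-4 and down to 6.06 ± 0.638 under IL-27 (edgeR adjusted p = 0.000680 and 0.00939). Casp8 itself passed in neither comparison with untreated cells, except under IL-27 without untreated library 2 (edgeR adjusted p = 0.0364), and was 1.42-fold lower under IL-27 than under IL-4 (edgeR adjusted p = 0.00816). The TNF receptor gene Tnfrsf1b fell under both, 1.37-fold and 1.35-fold (edgeR adjusted p = 0.00642 and 0.00706). The further called genes were Mlkl and Ripk1 under IL-4 (log2 fold change 0.68 and -0.24) and the TRAIL receptor gene Tnfrsf10b under IL-27 (0.86). Their edgeR adjusted p was 0.0387, 0.0364 and 0.0194. These small counts moved with single libraries: the 2 rises under IL-4 became 1 without untreated library 1 or 2, IL-4 library 2 or 3 or any IL-27 library, and the 3 falls became 1 without untreated library 1 or 3. The 2 rises under IL-27 became 1 without untreated library 1 or 3 or IL-27 library 1 or 3, and the 2 falls became 4 without untreated library 2. The 2 genes higher under IL-27 than under IL-4 became 1 without IL-4 library 2 or 3 or any IL-27 library. In the 7 remaining libraries the counts were 4 up and 6 down under IL-4, 3 up and 5 down under IL-27 and 4 higher and 4 lower between the cytokines.

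Of 11 tested genes for p53 and its targets, 2 rose and 0 fell under IL-4, and 5 rose and 0 fell under IL-27 by edgeR, at median log2 fold changes of 0.10 and 0.38. At an unadjusted p under 0.05 1 was lower in each of these comparisons, and DESeq2 called 0 lower under IL-4 and 1 under IL-27. Between the cytokines 4 were higher and 2 lower under IL-27. The shares of all tested genes called were 25.0% under IL-4, 29.2% under IL-27 and 39.8% between the cytokines. Sesn2, a stress-induced sestrin, rose 3.47-fold to 76.8 ± 5.18 CPM under IL-27 (edgeR adjusted p = 4.82e-06) and did not pass under IL-4 (edgeR adjusted p = 0.571). Phlda3, an AKT inhibitor, rose 1.92-fold under IL-27 (edgeR adjusted p = 0.000509). The cell cycle inhibitor Cdkn1a rose 2.49-fold under IL-4 (edgeR adjusted p = 0.000215) and did not pass under IL-27 (73.7 ± 1.75 against 65.8 ± 10.0 CPM, edgeR adjusted p = 0.457). Trp53, which encodes p53, did not pass against untreated cells under either cytokine (edgeR adjusted p = 0.1000 and 0.0945), although it did under IL-27 by the DESeq2 test (adjusted p = 0.0478). The further called genes were Plk2 under IL-4 (log2 fold change 0.40) and Eda2r, Mdm2 and Plk2 under IL-27 (1.74, 0.55 and 0.38). Their edgeR adjusted p was 0.00782 under IL-4 and 0.00748, 0.0346 and 0.00925 under IL-27. Under IL-4 a fall appeared without untreated library 2, and in the 7 remaining libraries the counts were 4 up and 2 down under IL-4, 7 up and 1 down under IL-27 and 6 higher and 3 lower between the cytokines.

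Of 17 tested regulators of the family, 4 rose and 3 fell under IL-4, and 4 rose and 1 fell under IL-27, at medians of 0.06 and 0.06. Between the cytokines 6 were higher and 5 lower under IL-27. In the same order, 25.0%, 29.2% and 39.8% of all tested genes were called. Atf4, the amino acid stress factor, stood at 130 ± 3.09 CPM in untreated, 215 ± 7.26 CPM in IL-4 and 477 ± 12.6 CPM in IL-27 libraries (edgeR adjusted p = 7.78e-05 and 2.81e-07 against untreated). Ddit3, which encodes the factor CHOP, rose 4.20-fold to 105.4 ± 1.47 CPM under IL-27 (edgeR adjusted p = 7.28e-06) and did not pass under IL-4 (edgeR adjusted p = 0.140). Fbxw7, part of a ubiquitin ligase that marks MCL1 for destruction, rose 2.01-fold under IL-27 (edgeR adjusted p = 4.43e-05). Its 1.23-fold fall under IL-4 (edgeR adjusted p = 0.0452) was lost on leaving out any single library (edgeR adjusted p from 0.0501 to 0.149). Myc rose 4.13-fold under IL-4 (edgeR adjusted p = 6.40e-06) and did not pass under IL-27 (edgeR adjusted p = 0.217). The 1 fall under IL-27 was Foxo3, a forkhead factor known to activate Bcl2l11 and Bbc3, from 177 ± 18.1 to 100.3 ± 3.30 CPM (edgeR adjusted p = 0.000382), named here after its values were seen. Foxo3 did not pass under IL-4 (142 ± 17.1 CPM, edgeR adjusted p = 0.0590), but did with upper-quartile scaling, by DESeq2, without IL-4 library 1 and without both libraries that stood apart (adjusted p from 4.87e-05 to 0.0379). Foxo1, another forkhead factor on the list, did not pass under IL-27 (22.3 ± 1.40 against 20.5 ± 1.69 CPM, edgeR adjusted p = 0.457). It was higher under IL-27 than under IL-4 (log2 fold change 0.36, edgeR adjusted p = 0.0308). The part of either factor in the Bcl2l11 and Bbc3 values was not tested. The further called genes were Vdac1, Vdac3, Stat3 and Stat5b under IL-4 (log2 fold change 0.39, 0.38, -0.49 and -0.45) and Stat3 under IL-27 (0.39). Their edgeR adjusted p was 0.00507, 0.0255, 0.0221 and 0.00636 under IL-4. For Stat3 under IL-27 it was 0.0495, just under the threshold. The 3 falls under IL-4 became 1 when untreated 3, IL-4 2 or IL-4 3 was left out, and the 1 fall under IL-27 became 2 without IL-4 library 1, with upper-quartile factors, by DESeq2 and in the fit of 2 groups. In the 7 remaining libraries the counts were 7 up and 5 down under IL-4, 7 up and 3 down under IL-27 and 9 higher and 7 lower between the cytokines. Among Foxo3 and the up to 4 genes per list with the lowest adjusted p, some not called against untreated in the 9 libraries passed in those 7. They were Casp8, Bnip3l, Ddit3 and Foxo3 under IL-4 and Casp8, Cdkn1a, Trp53 and Myc under IL-27.

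For the 3 members whose group means ranged most widely, Pmaip1, Bcl2 and Bcl2l1, the genes with the most similar log2 CPM over the 9 libraries were sought among 9405 named genes of at least 5 CPM. Bcl2 was most like Ifrd1, Hspa9 and Rhbdd1, with Pearson r from 0.990 to 0.995. Ifrd1 stood at 26.9, 55.8 and 118.8 CPM in untreated, IL-4 and IL-27 cells, the same order as Bcl2. Bcl2l1 was most like Nhlrc3, Pcnx and Tnks1bp1, with r from 0.997 to 0.998, and Nhlrc3 stood at 61.1, 50.3 and 89.6 CPM. Pmaip1 was most like Tpt1, Ptpn12 and Rapgef5, with r from 0.983 to 0.992, although Tpt1 differed little in level between groups (1545, 1442 and 1585 CPM). These r describe 9 libraries in 3 groups, among them the 2 that stood apart, and the search picked the highest of many genes.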

How the data were processed

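Per the labels' protocols, TRIzol was used to isolate RNA, and polyA-selected libraries came from the VAHTS Universal V6 kit. The deposited values are whole-number counts per gene and library, and the submitters' processing notes name fastp, HISAT2, HTSeq and the build GRCm39; annotation, strand, settings and the handling of shared reads are not stated in the sources used. The deposited FPKM values are the same counts divided by gene length and library total, since they gave 1 whole length per gene (within 0.001 bases) for 100% of genes; FPKM was used for levels and entered no test. Counts were fitted in R 4.3.3 with edgeR 4.0.16, by 1 quasi-likelihood model of the 9 libraries by group, TMM factors of 0.918 to 1.06 and filterByExpr with a minimum count of 10. The common dispersion of 0.0272 equals a CV of 0.165. SEs are the log2 fold change over the root of the F statistic and are approximate. CPM levels are TMM-normalised, as mean ± SD of 3 libraries; log2 CPM used a prior count of 2. The procedure was tested on simulated data.

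The alternatives were other scaling factors, the DESeq2 (1.42.0) Wald test, other filters, fits with 2 groups only, a replicate block, leaving out each library and leaving out both libraries that stood apart. The 10 members and the gene lists were chosen with earlier results of these data known. Named genes were all members, per list up to 4 genes with the lowest adjusted p in any comparison, and 3 genes most like each of 3 members; the marker lists cover macrophages and 6 other cell types. RefSeq promoter entries of 9 of 10 members were used, and transcript GC was found for 98.0% of tested genes. Some genes of the lists are not reported here by name.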

Additional observations from a re-analysis of the deposited data

How the results depend on the processing

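Of 170 member values under 17 alternatives in each comparison, 132 kept direction and call for IL-4 against untreated, 149 for IL-27 against untreated and 167 for IL-27 against IL-4. With scaling by DESeq2 size factors or upper quartiles, the DESeq2 test or other filters, the counts of called members did not change. The fits with only 2 groups left 1 member higher and 1 lower under IL-4 and 984 genes lower in all; the spread then came from 6 libraries. Without both libraries that stood apart, 5909 genes were called under IL-4 (3061 higher, 2848 lower), 6313 under IL-27 (3089 higher, 3224 lower) and 3560 were higher under IL-27 than IL-4, and 5 members were higher under IL-27 than untreated; the cause was not tested. Leaving out single libraries gave 1 to 3 members higher and 2 to 5 lower under IL-4, 3 to 5 higher and 1 to 2 lower under IL-27, and 6 higher and 1 to 2 lower between the cytokines. The effector sum in IL-27 cells was 151.9 on the scale of TMM counts per kilobase.

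All genes called on leaving out single libraries ranged from 2313 to 3666 under IL-4 (1214 to 1827 higher, 1066 to 1839 lower), from 2580 to 4618 under IL-27 (1241 to 2232 higher, 1335 to 2386 lower) and from 3859 to 5700 between the cytokines (1869 to 2644 higher, 1961 to 3056 lower).

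The sign of some values that were not called turned. Mcl1 under IL-27 was -0.0235 with upper-quartile factors, -0.00957 with no filter and -0.00576 with 2 groups, and it ranged from -0.113 to 0.0589 on leaving out libraries; it was called only without both libraries that stood apart. On leaving out libraries, Bax ranged from -0.250 to 0.387 under IL-4, from -0.322 to 0.104 under IL-27 and from -0.445 to 0.0701 between the cytokines. Between the cytokines Tnfrsf1b ranged from -0.0210 to 0.0920 and Bmf from -0.0969 to 0.0332.

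With a replicate block, 1 member was higher and 4 were lower under IL-4, 3 were higher and 1 lower under IL-27, and 6 were higher and 1 lower between the cytokines, with 2308, 2899 and 4216 genes called in all. The labels give only shared numbers: deviations of same-numbered libraries correlated at -0.7752, -0.797 and 0.6665 between untreated and IL-4 across 9553 genes and at -0.0055 to 0.081 with IL-27, while untreated 2 and IL-4 1 correlated at 0.9003, so the numbers were not taken as pairs.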
